A study of Mus musculus with 2 samples.

Results

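The genes of neutrophil granules were followed through the stages of neutrophil maturation in the omentum, the fatty apron of the mouse abdomen that has its own clusters of immune cells. The set holds 10 of the 19960 genes listed, taken by symbol and not by any measured value. Elane, Mpo, Prtn3 and Ctsg belong to the primary granules, Ltf, Camp, Ngp and Lcn2 to the secondary granules, and Mmp8 and Mmp9 were taken as tertiary. Omental cells of WT mice and of Postn-DTR mice, both injected i.p. with diphtheria toxin (DT), were profiled 5 days later by droplet-based single-cell RNA sequencing. Postn-DTR mice are heterozygotes (Postn Dtr/+) that carry a toxin receptor in the first coding exon of Postn, so the Postn promoter decides which cells the toxin can kill. Cells of 3 mice were pooled in each group and each group is 1 library. There are thus no replicates, no test was run, and a difference between the libraries cannot be told apart from the genotype.

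Neutrophils make their granules in order as they mature in the bone marrow. Primary (azurophil) granules are filled at the promyelocyte stage, secondary (specific) granules at the myelocyte and metamyelocyte stages, and tertiary (gelatinase) granules last, and each protein is sorted mainly by the time at which its gene is transcribed. Transcription of most of these genes has ended by the time a neutrophil enters the blood, which then carries the proteins without the mRNA. C/EBP factors, PU.1, GFI1 and RUNX1 are the best known regulators of this order.

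Among the primary genes, Elane, Prtn3 and Ctsg encode the serine proteases neutrophil elastase, proteinase 3 and cathepsin G, and Mpo encodes myeloperoxidase, which makes hypochlorous acid. Elane (chr10:79886247-79888215) and Prtn3 (chr10:79874476-79883174) are neighbours on the plus strand of chromosome 10, 3072 bases apart. Mpo lies at chr11:87793581-87804413 and Ctsg at chr14:56099881-56102574. Of the secondary genes, Ltf encodes the iron carrier lactoferrin (chr9:111019271-111042767), Camp the cathelicidin antimicrobial peptide (chr9:109847379-109849617) and Ngp the cystatin-like neutrophilic granule protein (chr9:110419747-110423012). These 3 lie on chromosome 9 with gaps of 570.1 kb between Camp and Ngp and 596.3 kb between Ngp and Ltf. Lcn2, at chr2:32384633-32388252, encodes the lipocalin that binds bacterial siderophores. Mmp8 (chr9:7558456-7568485) encodes neutrophil collagenase, which is often placed in secondary granules, and Mmp9 (chr2:164940780-164955850) encodes gelatinase B. Positions are 1-based on GRCm38 (mm10) from the GENCODE annotation.

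Promoter sequences were found for 9 of the 10 genes in the RefSeq table of GRCm38.p6, which has no entry for Mmp9. They are shown because the genes of a granule class had like courses over the stages. Each sequence below is the 250 bases before the start site, 5′ to 3′ on the strand of the gene. The start site is that of the RefSeq table, which differs from the GENCODE bounds given above. By those bounds the Prtn3 sequence lies within the gene, and the Elane, Ngp and Camp sequences reach into theirs. Capitals mark GAGGAA, the core letters bound by PU.1, in Elane (chr10:79886062-79886311, plus strand) and Prtn3 (chr10:79879417-79879666, plus strand). They mark TTNNGNAA, a C/EBP-type motif, on either strand in Ngp (chr9:110419558-110419807, plus strand) and Mmp8 (chr9:7558179-7558428, plus strand), and nothing in Camp (chr9:109849457-109849706, minus strand).
Elane: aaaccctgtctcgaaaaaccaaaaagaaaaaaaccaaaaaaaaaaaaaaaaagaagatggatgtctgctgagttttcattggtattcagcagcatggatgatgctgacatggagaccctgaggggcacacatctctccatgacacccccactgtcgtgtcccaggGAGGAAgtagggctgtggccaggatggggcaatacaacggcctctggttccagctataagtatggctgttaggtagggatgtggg
Prtn3: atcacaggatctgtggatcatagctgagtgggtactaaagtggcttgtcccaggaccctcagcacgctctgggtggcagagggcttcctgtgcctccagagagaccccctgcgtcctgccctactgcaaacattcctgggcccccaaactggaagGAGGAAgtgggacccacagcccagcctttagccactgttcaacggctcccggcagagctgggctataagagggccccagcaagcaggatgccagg
Ngp: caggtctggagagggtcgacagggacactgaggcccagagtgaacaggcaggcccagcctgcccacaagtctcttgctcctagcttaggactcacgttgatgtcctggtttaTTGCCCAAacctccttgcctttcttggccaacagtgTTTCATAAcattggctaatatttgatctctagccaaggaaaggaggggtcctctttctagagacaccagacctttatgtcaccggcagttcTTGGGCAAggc
Camp: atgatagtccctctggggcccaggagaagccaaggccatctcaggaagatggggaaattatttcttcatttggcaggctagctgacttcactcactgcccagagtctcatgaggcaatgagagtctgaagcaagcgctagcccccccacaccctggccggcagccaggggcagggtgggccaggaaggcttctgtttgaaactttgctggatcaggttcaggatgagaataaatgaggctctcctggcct
Mmp8: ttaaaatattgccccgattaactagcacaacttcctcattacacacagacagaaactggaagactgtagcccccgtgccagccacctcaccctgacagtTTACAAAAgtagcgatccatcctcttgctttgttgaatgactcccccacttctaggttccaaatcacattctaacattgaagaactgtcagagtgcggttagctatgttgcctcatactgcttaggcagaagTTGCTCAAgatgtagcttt
Letters were counted on both strands in windows from 250 bases before to 50 after the start site. GAGGAA stood in the windows of 4 of 4 primary genes, of Ltf and Lcn2 among the secondary genes, and of Mmp8, against 28.3% of all 32851 windows in the table. In Elane and Prtn3 it began 85 and 95 bases before the start. TTNNGNAA stood in 0 of 4 primary windows, in 3 of 4 secondary windows (2 matches in Ltf, 3 in Ngp, 1 in Lcn2) and in Mmp8 (2 matches), against 40.7% of all windows. AAATCA, the GFI1 core, was found in Ltf and Mmp8 (4598 of all windows) and TGTGGT, the RUNX core, in Ctsg and Ltf (16.8%). No motif overlapped another in the capitals shown, and a match is a description of letters, not of binding.

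The libraries kept 8654 WT cells and 5727 Postn-DTR cells with 80152228 and 81010680 unique molecular identifiers (UMIs, each marking 1 captured transcript), at medians of 5635 and 8472 UMIs per cell, and they shared 65 barcode sequences. Postn, the targeted gene, gave 50 UMIs in 9 of 41 WT stromal-like cells and 9 UMIs in 4 of 19 Postn-DTR stromal-like cells. Cells were clustered without the 10 granule genes, and clusters were named from other marker genes. Ms4a3, a precursor marker, had levels of 10.1 and 7.77 in precursor-like cells of WT and Postn-DTR and at most 0.360 in the later stages. Cxcr2, a receptor of mature neutrophils, had 7.06 and 10.0 in mature neutrophil-like cells and at most 2.14 in the other stages. A level here is the mean over cells of the UMIs of a gene per 10000 UMIs of the cell, and levels were compared between classes or libraries for 1 gene at a time, not between genes.

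The primary genes were transcripts of the precursor stage (plot of levels by class). Elane had a level of 119 in the 119 WT precursor-like cells and 81.6 in the 209 Postn-DTR ones. Immature neutrophil-like cells gave 0.908 and 0.0696, and 59 of the 65 WT UMIs there came from 1 cell. Mature neutrophil-like cells gave 0.0155 and 0.205, from 1 and 30 UMIs. Elane thus was high in precursors of both libraries, and low in mature cells beside 0.0369 and 0.0888 in lymphocytes, which should not transcribe it. Mpo followed the same course, with 68.2 and 44.3 in precursors, 0.0780 and 0.110 in immature cells and 0.0251 and 0.157 in mature cells. Prtn3 had 123 and 68.1 in precursors, 1.13 and 0.201 in immature cells and 0.0631 and 0.238 in mature cells. Ctsg had 22.8 and 15.2 in precursors, and only 2 and 4 UMIs in immature cells and 0 and 2 in mature cells. For each primary gene precursor-like cells held most of the library's UMIs, 96.4% and 93.4% for Elane, 92.8% and 93.9% for Mpo, 92.0% and 80.1% for Prtn3 and 87.1% and 83.0% for Ctsg. Monocyte-like cells held the next largest share, up to 15.5% for Ctsg in Postn-DTR.

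**Figure D1:**
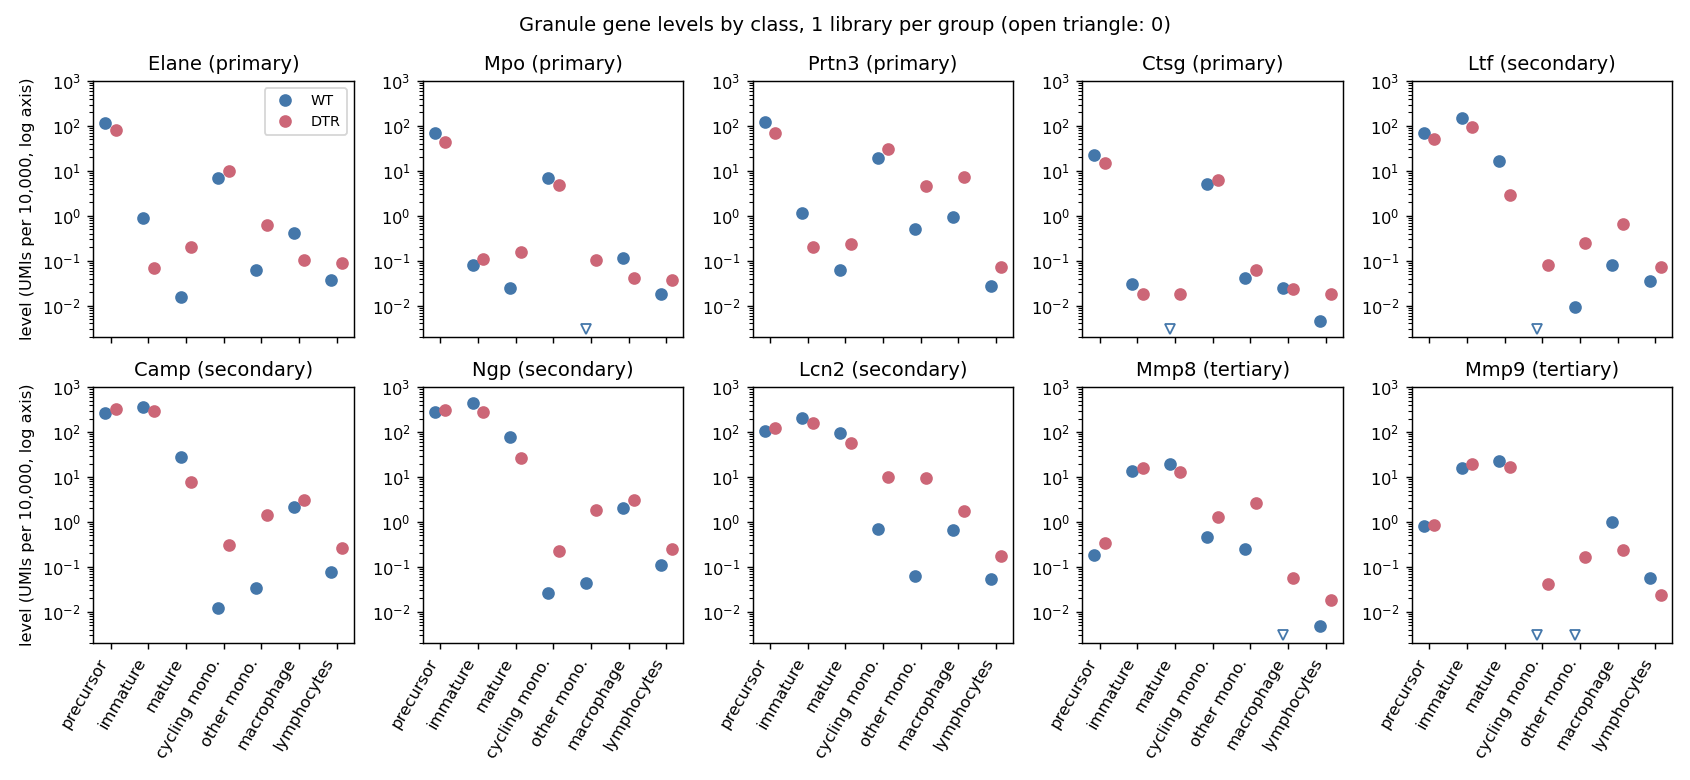
Level of each granule gene (mean UMIs per 10000 UMIs per cell, log axis) by cell class, with WT in blue and Postn-DTR in red, 1 point per library and class and an open triangle for a level of 0. Primary genes are high in precursor-like cells (Elane 119 and 81.6) and again in cycling monocyte-like cells, secondary genes in precursor- and immature-like cells, and Mmp8 and Mmp9 in immature- and mature-like cells.

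The secondary genes were shared by precursor- and immature-like cells. Ltf, the latest of them, was higher in immature than in precursor-like cells in both libraries, with 149 against 69.5 in WT and 94.8 against 51.1 in Postn-DTR. Lcn2 also had its highest level in immature cells, 207 in WT and 164 in Postn-DTR, after 109 and 121 in precursors. Camp and Ngp changed order between the libraries. In WT, Camp had 271 in precursors and 362 in immature cells, and Ngp 284 and 438, whereas in Postn-DTR the precursor level was the higher one, with 322 against 294 for Camp and 319 against 287 for Ngp. The precursor-like class mixes cells with and without secondary transcripts, and its WT cells had quartiles of 0.261 and 511 for Camp. In mature neutrophil-like cells the levels were lower, 16.8 and 2.89 for Ltf, 28.1 and 7.79 for Camp, 76.5 and 27.1 for Ngp and 94.99 and 58.2 for Lcn2. Lcn2 was the secondary gene that most mature cells still held, in 85.6% (95% interval 77.0 to 91.9) of WT and 88.1% (85.02 to 90.8) of Postn-DTR mature cells once each cell had been thinned at random to 1000 UMIs. Thinning left out cells with fewer UMIs, 1 and 13 of the mature cells and 27 and 19 of the lymphocytes. Ltf at the same depth was found in 36.1% (26.6 to 46.5) and 8.56% (6.29 to 11.3) of them. Lymphocytes, which should lack these transcripts, gave 0.270% and 1.04% for Lcn2 and 0.284% and 0.472% for Ltf at that depth. Before thinning, the median mature cell held 5947 UMIs in WT and 2931 in Postn-DTR, and the median lymphocyte 5140 and 14779, and the shares were 91.8% and 93.9% for Lcn2 and 44.9% and 12.9% for Ltf. Intervals on shares are exact (Clopper-Pearson), and here and below all intervals cover counting error only.

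Mmp8 and Mmp9 came last. In precursor-like cells Mmp8 had levels of 0.180 and 0.342 and Mmp9 0.797 and 0.842. In immature cells Mmp8 had 13.7 and 15.9 and Mmp9 15.8 and 19.2, and in mature cells the levels were 19.3 and 13.2 for Mmp8 and 22.6 and 16.5 for Mmp9. The highest stage was thus mature in WT and immature in Postn-DTR for both genes, with less than a 2-fold difference between these stages in either library. Mmp9 was found in 79.4% (70.0 to 86.9) and 72.8% (68.7 to 76.6) of thinned mature cells and Mmp8 in 62.9% (52.5 to 72.5) and 58.2% (53.8 to 62.5).

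The precursor-like class was then opened up along a score made of other genes, the mean of the immature-stage markers minus the mean of the precursor-stage markers, and its 328 cells were cut into 5 bins of equal size. The order of the granule classes appeared within it. The score markers include further granule genes (Cd177, Pglyrp1, Chil3 and Fcnb) and Ms4a3, which ran like the primary genes over clusters. The order is thus not independent of the score. Over both libraries the Elane level was 207 in the first bin, 231 in the second, 33.1 in the third, and 1.17 and 0.467 in the last pair. Mpo went from 139 and 115 to 9.44 in the third bin, and Ctsg from 52.4 and 34.8 to 2.11. Prtn3 went from 212 and 190 to 32.8, and to 0.895 in the last bin. Secondary genes ran the other way. Camp had 10.8 in the first bin, 126 in the second and 423, 478 and 484 in the others, and Ngp had 5.19, 101, 423, 526 and 480. Ltf began later, at 0.00701 and 1.70 in the first bins, then 58.6, 106 and 123. Lcn2 had 1.46, 23.6, 150, 208 and 200. Camp and Ngp were therefore well above their first-bin levels in the second bin, where Elane was still at its highest, whereas most of the gain in Ltf came between the second and the third bin. Mmp8 and Mmp9 appeared only at the end, at 1.26 and 3.20 in the last bin, and both were at or below 0.846 before it. Between 13 and 37 cells lay within 0.1 SD of the score at each cut, so the bins are ranges of 1 course and not separate types.

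**Figure D2:**
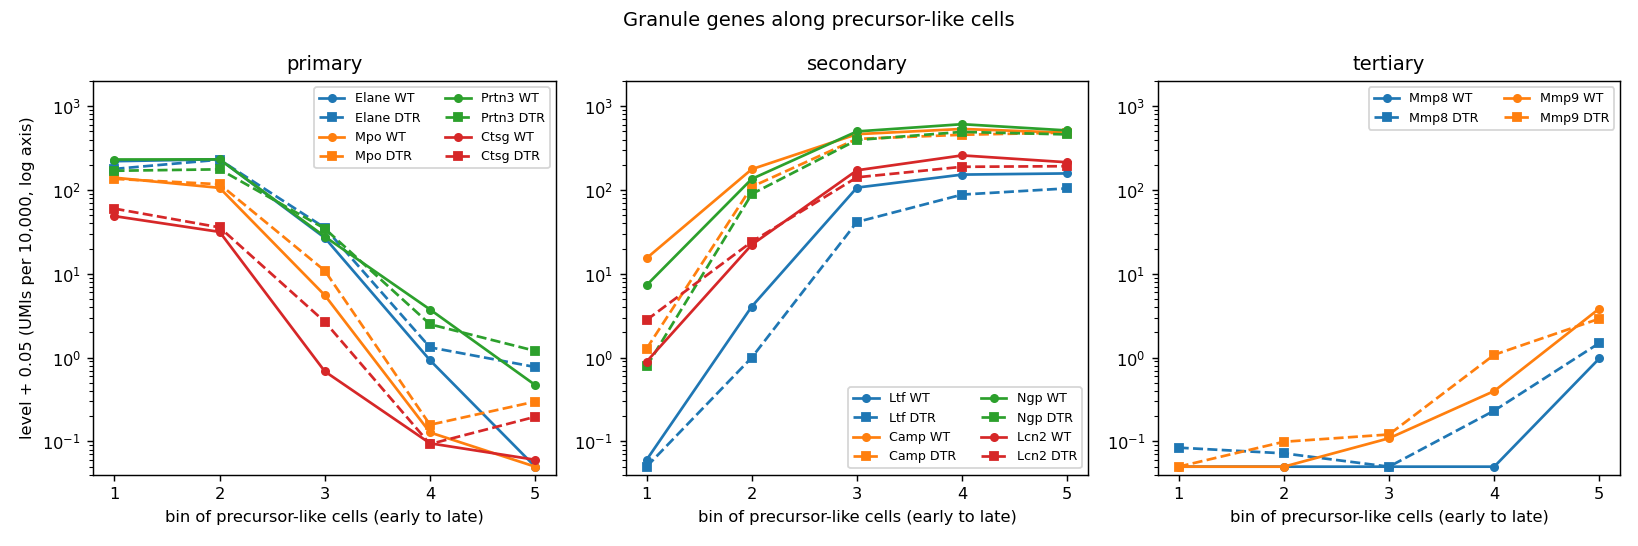
Level plus 0.05 (UMIs per 10000, log axis) of primary, secondary and tertiary granule genes in 5 bins of precursor-like cells, ordered from early to late by other marker genes, with solid lines and circles for WT and dashed lines and squares for Postn-DTR. Primary genes are high in the first 2 bins and secondary genes in the last 3, and Mmp8 and Mmp9 (up to 3.81) are seen in the last bins.

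Primary and secondary transcripts met in the same cells. Of WT precursor-like cells thinned to 1000 UMIs, 29.4% (21.4 to 38.5) held only primary, 40.3% (31.4 to 49.7) both and 30.3% (22.2 to 39.4) only secondary transcripts, and none held neither. In Postn-DTR these shares were 11.5% (7.498 to 16.6), 44.0% (37.2 to 51.0) and 44.5% (37.6 to 51.5). The share with primary transcripts alone was thus smaller in Postn-DTR, while the share with both differed by less than its interval. Immature cells held both in 4.35% and 3.41% of cells. Across single precursor-like cells Elane and Prtn3 went together (Pearson r of log values 0.98 in WT and 0.97 in Postn-DTR), as did Camp and Ngp (0.97 and 0.96), and the primary sum ran against the secondary sum (-0.79 and -0.72). These correlations are over 119 and 209 cells that share a library and differ in depth, and are given as a description.

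Immature and mature neutrophil-like cells were ordered in the same way, by the mature-stage markers minus the immature-stage markers, in 5 bins of the 977 cells. The immature-stage markers include Cd177, Pglyrp1 and Chil3, so a fall of secondary genes along this order is not independent of the score. Each secondary gene was lower from bin to bin over both libraries, at its own pace. Ltf had levels of 141, 76.1, 7.78, 0.216 and 0.115, and Camp had 439, 154, 18.3, 0.818 and 0.331. Ngp declined more slowly, with 442, 224, 59.6, 7.56 and 1.31, and Lcn2 most slowly, with 216, 149, 86.4, 45.1 and 32.7. From the first to the last bin Lcn2 thus kept the largest part of its level among the secondary genes. Mmp8 and Mmp9 were highest in the middle of the order, Mmp8 with 8.52, 24.6, 22.4, 11.6 and 5.12 and Mmp9 with 12.1, 27.3, 23.6, 15.1 and 9.92. Within libraries Mmp8 was highest in the second bin in WT (28.2) and had 22.5 and 22.8 in bins 2 and 3 in Postn-DTR. Between 56 and 77 cells lay within 0.1 SD of each cut.

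**Figure D3:**
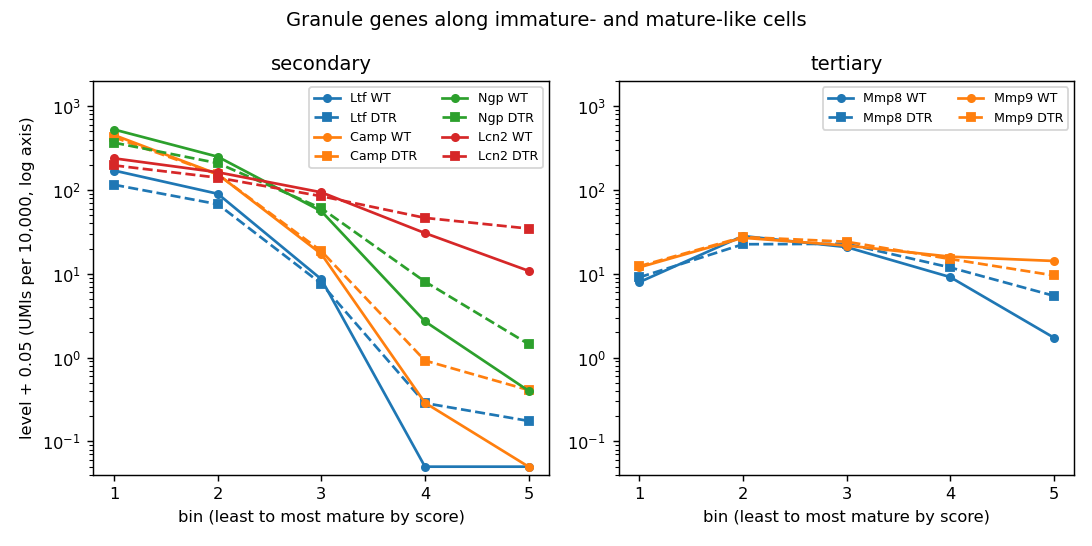
Level plus 0.05 (UMIs per 10000, log axis) of secondary genes and of Mmp8 and Mmp9 in 5 bins of immature- and mature-like cells, from least to most mature by other marker genes, with solid lines for WT and dashed lines for Postn-DTR. Secondary genes decline from left to right, Lcn2 the least of them, and Mmp8 and Mmp9 are highest in bins 2 or 3. The last 2 bins hold 17 and 16 WT cells.

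The make-up of the neutrophil lineage differed between the libraries by more than counting error. Precursor-like cells were 33.4% (28.5 to 38.6) of 356 WT and 22.0% (19.4 to 24.8) of 949 Postn-DTR neutrophil-lineage cells, immature cells 39.0% (33.9 to 44.3) and 22.4% (19.8 to 25.2), and mature cells 27.5% (22.9 to 32.5) and 55.5% (52.3 to 58.7). Within the precursors, the first bin, with high Elane and little Camp, held 37.8% (29.1 to 47.2) of the WT cells and 10.0% (6.33 to 14.9) of the Postn-DTR cells. Called doublets were 0 among the WT stages and 3, 7 and 11 among the Postn-DTR precursor, immature and mature cells. Among the later cells, the least mature bin held 38.4% (32.2 to 44.9) of the WT and 14.2% (11.8 to 16.9) of the Postn-DTR cells, and the 2 most mature bins 7.17% and 6.75% in WT against 24.1% and 24.2% in Postn-DTR. A granule gene level over all neutrophils therefore mixes different stages in the 2 libraries, and Postn-DTR was compared with WT within each stage. The bin scores use markers that also differed between the libraries within a stage. Of the 10 mature-stage markers 2 were over 2-fold higher in Postn-DTR in immature cells and 2 in mature cells, and none lower. Stfa2l1, 1 of them, was at 0.260 and 5.05 in immature cells. Of the 9 immature-stage markers, Cd177 and Itgb2l were over 2-fold lower and Chil3 higher in Postn-DTR mature cells, and none passed 2-fold in immature cells. No marker of the precursor score passed 2-fold in precursors, where Chil3 was at 48.1 and 84.1. Whether a bin holds cells of like maturity in both libraries was not tested.

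In precursor-like cells none of the 10 genes differed by 2-fold, where of the 7085 genes that had 100 or more UMIs in the libraries together 0.706% were higher and 0.946% lower in Postn-DTR by that much (plot of log2 ratios by class). Ratios are log2 of the levels with 0.05 added. The primary genes were lower in Postn-DTR, by -0.54 for Elane, -0.62 for Mpo, -0.86 for Prtn3 and -0.58 for Ctsg. Ltf was at -0.44 and the other secondary genes lay from 0.15 to 0.25. On summed UMIs the ratio was -0.44 (-0.46 to -0.43) for Elane and 0.27 (0.26 to 0.29) for Camp. For Mmp8, with 149 UMIs in all, the ratio was 0.77 on levels and 1.29 (0.74 to 1.87) on summed UMIs, which is past 2-fold. Cells of like maturity score were then compared. Within the 5 bins the secondary sum was lower in Postn-DTR in 5 of 5 bins, from -2.30 in the first to -0.14 in the last, with a mean of -0.74 (-1.22 over the first and last bin alone, since bins 2 to 4 hold 16 to 18 WT cells). Both means rest in large part on the first bin, where the level was only 23.4 in WT and 4.73 in Postn-DTR. In the last bin it was 1370 and 1243, and bins 2 to 4 lay from -0.60 to -0.33. The primary sum was lower in 3 of 5 bins, among them the first 2, where it was highest (-0.24 and -0.11). Its mean of 0.42 rests on the last bin, where the level was only 0.432 in WT and 2.27 in Postn-DTR. The primary genes did not all follow their sum in the first 2 bins. Prtn3 was lower in Postn-DTR in both, at 231 in WT and 169.8 in Postn-DTR, then at 232 and 177. Elane was at 221 and 179, then at 233 and 230.4. Mpo was at 140.5 and 136, then at 106 and 117. Ctsg was higher in Postn-DTR in both bins, at 48.8 and 59.97, then at 31.6 and 35.8.

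In immature neutrophil-like cells 7 genes had at least 100 UMIs and 1 of them, Prtn3, was lower in Postn-DTR by over 2-fold (-2.23, 107 against 34 UMIs), against 1.08% of 2766 genes lower and 1.81% higher. A single WT cell gave 55 of the 107 UMIs, and without the cell with the most UMIs in each library the ratio was -0.68. The 4 secondary genes lay from -0.66 (Ltf) to -0.30 (Camp), Mmp8 at 0.22 and Mmp9 at 0.29, beside a median of 0.13 over all genes.

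In mature neutrophil-like cells 3 of the 6 genes with enough UMIs were lower in Postn-DTR by over 2-fold, against 1.93% of 2330 genes lower and 6.18% higher. They were Ltf (-2.52, 1292 and 740 UMIs in 98 and 527 cells), Camp (-1.85) and Ngp (-1.50), and Lcn2 stood at -0.71, Mmp8 at -0.54 and Mmp9 at -0.46. S100a8 and S100a9, which mark neutrophils of all stages, were at -0.57 and -0.61. The size of these ratios depended on where the mature class begins. When the granule genes were allowed into the clustering, which then uses the genes compared, mature cells were 13.4% of the WT lineage rather than 27.5%, and the secondary sum was at 0.19 rather than -1.17. There Ngp was at 0.33 and Camp at -0.57, no longer past 2-fold, and no value was computed for Ltf. Under the other settings tried on the whole class Ltf, Camp and Ngp stayed lower by over 2-fold. Along the maturation bins the secondary sum was at -0.33, -0.20 and -0.04 in the first 3 bins and at 0.73 and 1.71 in the last, where WT had 17 and 16 cells. The mean was 0.37 over all bins and -0.19 over the first 3. The secondary sum was not lower by 2-fold in any bin, and the part of the bins' shares in the class-level ratios was not tested.

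**Figure D4:**
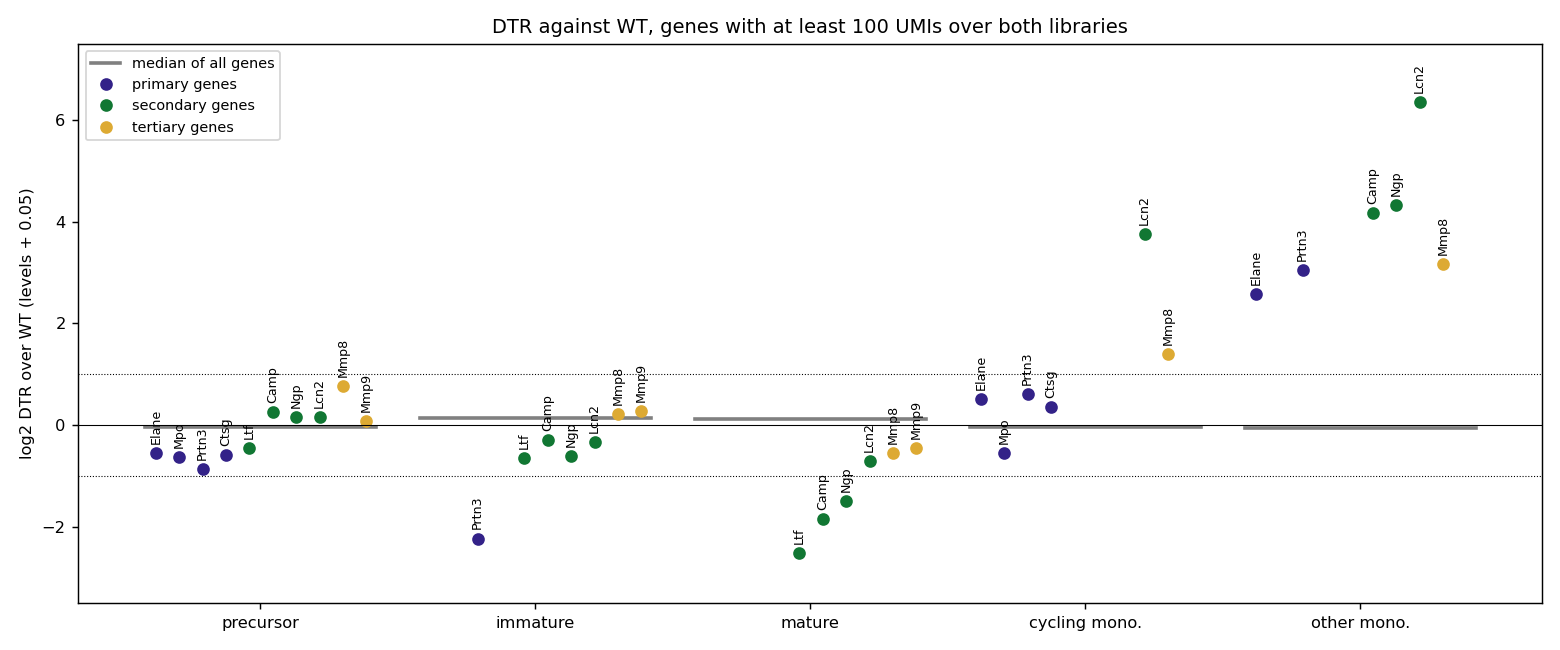
Log2 ratio of Postn-DTR over WT (levels plus 0.05) of each granule gene that had 100 or more UMIs, by class and colored by granule class, with the median of all genes as a grey line and dotted lines at 2-fold. No gene passes 2-fold in precursor-like cells, and Ltf, Camp and Ngp lie at -2.52 to -1.50 in mature-like cells. In monocyte-like cells outside the cycling cluster all points are above 2.5. Those genes passed the UMI filter through Postn-DTR, with at most 70 UMIs in WT.

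Monocyte-like cells held 2 patterns of granule transcripts. They numbered 169 in WT and 219 in Postn-DTR, with 34.9% and 35.2% in a cycling cluster, which split off at a clustering resolution of 1.6. In cycling cells of both libraries the primary genes stood well above lymphocytes. Prtn3 had levels of 19.7 and 29.96, Elane 7.06 and 10.1, Mpo 7.06 and 4.79 and Ctsg 4.99 and 6.41, and Prtn3 was found in 89.8% of the WT and 100% of the Postn-DTR cells (64.4% and 87.0% when thinned). Camp, Ngp, Ltf and Mmp9 were nearly absent there, with 0 to 3 UMIs in WT, and in Postn-DTR 64 of 73 Camp UMIs came from 1 cell. At 1000 UMIs, 66.1% (52.6 to 77.9) of the WT and 39.0% (28.0 to 50.8) of the Postn-DTR cycling cells held primary without secondary transcripts, and 1.69% and 49.4% held both. At 2000 UMIs 19.5% and 77.9% of the Postn-DTR cells held primary alone and both. Of the secondary genes Lcn2 was the one found in most of these Postn-DTR cells, in 57.1% of them against 5.08% in WT when thinned to 1000 UMIs. When the granule genes were allowed into the clustering, the cycling cells no longer belonged to the monocyte-like class, which then numbered 111 and 142. Precursor-like cells then numbered 177 and 285 rather than 119 and 209. The class name of the cycling cells thus depends on the clustering.

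Lcn2 set the libraries apart in monocyte-like cells. Its level was 0.289 in WT and 9.63 in Postn-DTR, which is 4.83 on the log2 scale and 4.43 (4.17 to 4.70) from the summed 125 and 3363 UMIs. Of 8 genes with enough UMIs 4 were higher in Postn-DTR by over 2-fold, Lcn2, Ngp (3.91), Camp (3.85) and Mmp8 (2.57), and none lower, against 1.41% of 6525 genes higher and 2.90% lower. Camp and Ngp rest on few cells. They passed the UMI filter through Postn-DTR, with 4 and 6 UMIs in WT against 269 and 257. Outside the cycling cluster 4.93% and 6.34% of Postn-DTR cells held a UMI of them, and 1 cell gave 124 of 196 Camp UMIs. The WT cells there had 2 and 3 UMIs, which puts the ratio on summed UMIs at 6.23 (4.35 to 9.28) for Camp and 5.68 (4.12 to 7.97) for Ngp. Lcn2 and Mmp8 by contrast were spread over the class.

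In the monocyte-like cells outside the cycling cluster, 110 and 142 cells whose median depths were 8676 and 8344 UMIs, Lcn2 was found in 2.73% and 72.5% of cells, and in 0.909% (0.0230 to 4.96) and 45.1% (36.7 to 53.6) when thinned. Mmp8 was in 14.5% and 71.1% of cells, and in 0.909% and 20.4% (14.1 to 28.0) when thinned. Prtn3, a primary gene, was in 24.5% and 73.9%, and in 4.55% and 31.0% (23.5 to 39.3) when thinned. The thinned shares of lymphocytes were 0.270% and 1.04% for Lcn2, 0.0426% and 0.199% for Mmp8 and 0.312% and 0.397% for Prtn3. These were below the Postn-DTR monocyte-like shares of the same genes. Lymphocytes are not the only class that should lack them, and Postn-DTR stromal-like cells had an Lcn2 level of 9.77. The source of the monocyte-like transcripts was not tested. Prtn3 had levels of 0.516 and 4.63 (log2 ratio 3.05) and Elane 0.0618 and 0.615 (2.57). All 6 genes with enough UMIs were over 2-fold higher in Postn-DTR here, against 2.78% of 3270 genes higher and 4.59% lower. They passed the UMI filter through Postn-DTR, with at most 70 UMIs in WT, so this count is in part set by the filter. Of the genes left out, Ctsg was at 0.33 (7 and 11 UMIs), and Mpo, Ltf and Mmp9 were past 2-fold on 0 or 1 WT UMIs. In the cycling cluster 2 of 6 genes were higher by that much, Lcn2 (3.76) and Mmp8 (1.40), against 1.09% higher and 1.76% lower. With the lymphocyte level of each library subtracted, the ratio was 3.099 for Prtn3 and 3.18 for Mmp8. The difference was also there in cells with a UMI of Ly6c2, the antigen of classical monocytes, of which there were 85 in WT and 110 in Postn-DTR at medians of 9220 and 9208 UMIs. Their Lcn2 level was 0.0819 and 11.6, their Prtn3 level 0.632 and 5.66 and their Mmp8 level 0.319 and 3.03, and Lcn2 was found in 3.53% and 84.5% of them. The 25 and 32 shallower cells without a Ly6c2 UMI had Lcn2 levels of 0 and 1.27. Ly6c2 itself was not confined to monocyte-like cells (22.1 and 17.6). It had 13.5 and 14.8 in precursor-like and 10.9 and 5.15 in mature neutrophil-like cells, so it does not set these cells apart from neutrophil RNA.

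**Figure D5:**
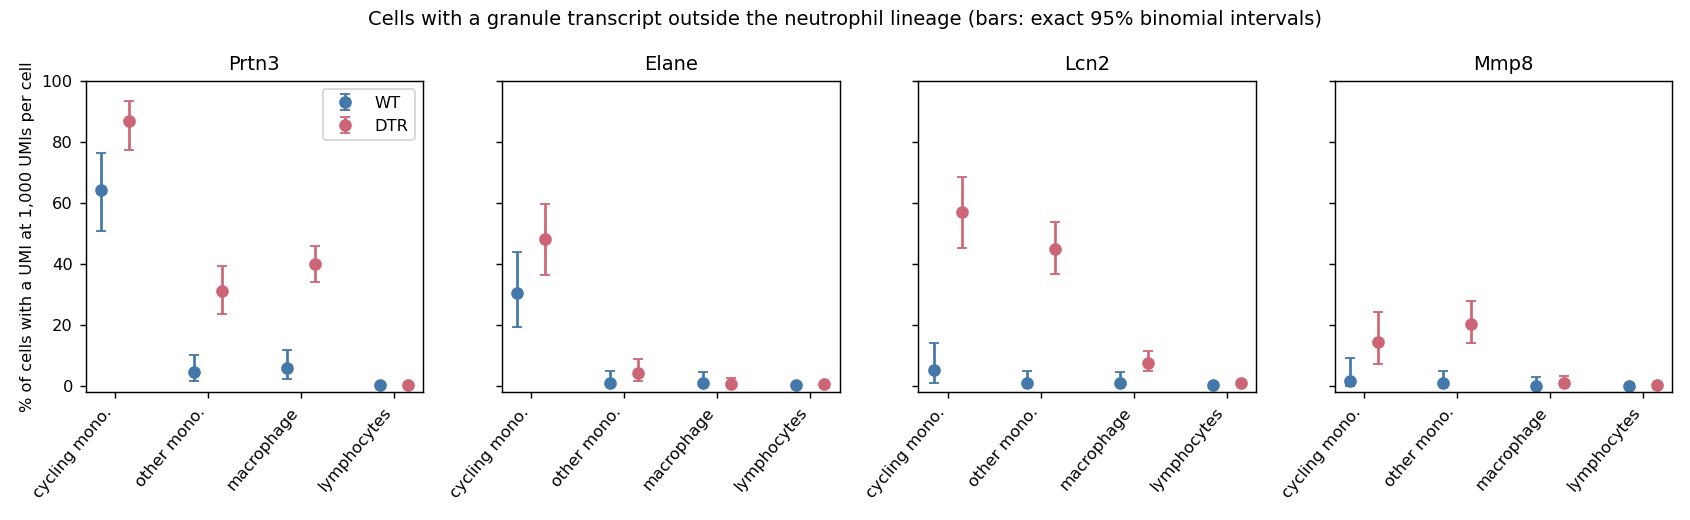
Percent of cells with at least 1 UMI of Prtn3, Elane, Lcn2 and Mmp8 after each cell was thinned to 1000 UMIs, in cycling and other monocyte-like, macrophage-like and lymphocyte classes of WT (blue) and Postn-DTR (red), with exact 95% binomial intervals that cover counting error only. Lcn2 is found in 45.1% of other monocyte-like cells of Postn-DTR and 0.909% of WT, and lymphocytes are near 0 for all 4 genes.

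Neutrophil markers were also higher in these monocyte-like cells. Of 6 neutrophil markers 3 were over 2-fold higher in Postn-DTR (S100a8, S100a9 and Retnlg), none was called lower, none was at 0 in either library, and their summed level was 3.21 in WT and 48.0 in Postn-DTR, against 2680 and 1980 in mature neutrophil-like cells. Ly6g, which defines neutrophils, was at 0.00476 and 0.0459, and Csf3r, the receptor of the growth factor G-CSF, went the other way, at 0.852 and 0.405. Chil3, a chitinase-like protein of secondary granules and monocytes, was at 6.21 and 53.1 in monocyte-like cells. The part of neutrophil RNA or doublets in the monocyte-like result was not tested beyond these values.

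In macrophage-like cells 3 of 7 genes with enough UMIs were over 2-fold higher in Postn-DTR (Prtn3, Ltf and Lcn2) and 2 lower (Elane and Mmp9), against 5.02% of 2930 genes higher and 3.11% lower. Prtn3 had a level of 0.948 in 122 WT cells, where it was found in 18.0% of cells and 104 of 194 UMIs were in 1 cell. In 328 Postn-DTR cells its level was 7.41 and it was found in 54.3% of cells. When thinned, it was found in 110 of 275 Postn-DTR cells (34.2% to 46.1%, with 53 shallower cells left out). Elane, its chromosomal neighbour, was in only 3.35% of the same Postn-DTR cells with 11 UMIs. The other calls rest on few cells. In WT a single cell held all 159 Elane UMIs, all 31 Ltf UMIs and 231 of 237 Lcn2 UMIs, and in Postn-DTR 158 of 298 Ltf UMIs, found in 4 cells, were in 1. On summed UMIs Lcn2 was at 0.27. Mmp9 was in 28 WT and 27 Postn-DTR cells, with 60 and 65 UMIs. Of the WT Camp UMIs 815 of 817 were in 1 cell, whereas in Postn-DTR 25 cells held Camp and 590 of 1229 UMIs were in 1 of them. Among mast and basophil-like cells, the 10 WT and 4 Postn-DTR cells with a UMI of the basophil protease Mcpt8 had Ctsg levels of 17.1 and 14.7 and Mpo levels of 19.4 and 2.22, from too few cells for a comparison.

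Granule transcripts were also counted in lymphocytes, which should lack them, as a measure of free RNA in the droplets (called doublets were kept). At 1000 UMIs per cell 2.92% (2.54 to 3.34) of WT and 4.50% (3.88 to 5.18) of Postn-DTR lymphocytes held a granule UMI, and 11.6% and 22.6% before thinning. The summed level of the 10 genes was 0.422 in 7075 WT and 1.003 in 4044 Postn-DTR lymphocytes, a log2 ratio of 1.16. It was 1.32 in T-like, 1.21 in B-like, 1.71 in NK-like and 1.68 in ILC-like cells and -0.25 in plasma-like cells. Without the 1% of lymphocytes with the most S100a8 and S100a9 the ratio was 0.64, and 0.86 without called doublets. The level was thus higher in Postn-DTR in 4 of 5 lymphocyte classes, by an amount that rests in part on few cells. Plasma-like cells, which were 622 of the WT and 2231 of the Postn-DTR lymphocytes, were the exception.

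The share found in lymphocytes differed between the genes, and free RNA, doublets and the cells' own transcripts were not told apart. Relative to its level over the whole library, the summed UMIs of lymphocytes held 0.289% (0.240 to 0.344) of the Elane level in WT and 1.15% (1.05 to 1.26) in Postn-DTR, and for Mpo 0.208% and 1.20%. The 4 secondary genes lay between 0.892% and 1.57% of their WT library levels and between 1.33% and 2.23% of their Postn-DTR ones. Plasma-like cells carried most of the WT part, with 854 of 1047 Camp UMIs (357 in 1 cell) and 516 of 596 Ltf UMIs (219 in 1 cell). In WT B-like cells Elane, at 0.354% of its library level, was above Camp (0.166%), Ngp (0.187%) and Lcn2 (0.139%), and in WT T-like cells Elane was at 0.426% and Camp at 0.344%. Mmp9 stood apart in WT with 8.63% (7.62 to 9.74), of which T-like cells held 176 of 262 UMIs, at 19.99% (17.1 to 23.2) of the library level, whereas B-like cells held 3 UMIs, at 0.301%. In Postn-DTR T-like cells held 9 Mmp9 UMIs, at 4.55% (2.08 to 8.63). For Elane the same classes had intervals of 0.319% to 0.557% and 0.263% to 0.467%, which overlap, and for Ltf they were at 0.519% (0.393 to 0.672) and 0.153% (0.0919 to 0.238). The source of the Mmp9 UMIs in WT T-like cells was not tested. Other classes held larger parts than lymphocytes. The 19 Postn-DTR stromal-like cells were at 111% of the library level for Lcn2, 117% for Camp and 182% for Ngp. WT cDC1-like cells, a dendritic class, were at 8.84%, 7.54% and 11.3%. The source of these UMIs was not tested either.

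Further granule genes were spread over the stages as follows. Of 8 further secondary genes, 5 had their highest stage level in immature cells, 2 in precursors and 1 in mature cells in both libraries, with Pglyrp1, a peptidoglycan-binding protein, at 53.4 and 46.8 in immature cells and Chil3 highest in precursors at 48.1 and 84.1. Of 5 further primary genes 4 were listed, 3 of which were highest in precursors, among them the granule membrane protein Cd63 (7.28 and 6.71), while the lysozyme gene Lyz2 was highest in immature cells (114 and 68.2). Of 7 tertiary and secretory vesicle genes, 3 were highest in immature and 3 in mature cells in both libraries, with the integrin Itgam at 6.42 and 4.94 in immature cells and the endotoxin co-receptor Cd14 at 8.96 and 19.9 in mature cells. Some of these genes, such as Cd177, Pglyrp1, Chil3 and Fcnb, also served as stage markers, so their stage is not independent of the clusters.

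For genes that pack, process or inhibit granule proteins the stages differed. Ctsc, which activates the serine proteases, was at 0.444 and 0.375 in precursors and 0.162 and 0.143 in mature cells, while Srgn, the proteoglycan that holds granule proteins, was highest in mature cells (47.3 and 76.8). The elastase inhibitor Serpinb1a was highest in precursors (9.83 and 15.1) and the secreted inhibitor Slpi in mature cells (33.9 and 37.8). Of 8 transcription factors 5 were highest in precursors in both libraries and 2 in mature cells, among them Cebpb (40.03 and 56.4) and Spi1, which encodes PU.1 (8.29 and 10.4). In the comparison of libraries, 3 of the 6 inhibitor genes with enough UMIs were over 2-fold higher in Postn-DTR in each stage and none lower. They were the stefins Stfa1, Stfa2 and Stfa3, cysteine protease inhibitors, with Stfa2 at 0 and 0.575 in precursors, 0.0108 and 3.04 in immature cells and 0.189 and 4.97 in mature cells. The stefin genes are near copies, and reads could be split among them, so the values of each are uncertain. Of the other secondary genes Olfm4 was lower in Postn-DTR precursors (-1.46), Cd177 (-1.10) and Cybb (-1.41) lower and Chil3 (1.54) higher in mature cells, and Chil3 (3.09) and Hp (1.11), the haptoglobin gene, higher in monocyte-like cells.

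Across the 31 WT and 24 Postn-DTR clusters with at least 20 cells, the genes whose log2 levels ran most like the mean of the primary genes were, among 10035 genes, Ms4a3 (Pearson r 0.95 in WT and 0.94 in Postn-DTR), Msantd3 (0.91 and 0.93), Plppr3 (0.93 and 0.91), Gm11505 (0.95 and 0.90) and Fcnb (0.90 and 0.86). For the secondary genes they were S100a9 (0.97 and 0.96), S100a8 (0.96 and 0.96), Wfdc21 (0.98 and 0.95), Cd177 (0.93 and 0.97) and Itgb2l (0.95 and 0.92). Clusters of a library share its depth and free RNA, and the correlations are given as a description.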

How the data were processed

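Omental cells of 1 WT and 1 Postn-DTR library, each pooled from 3 mice, were measured. Each deposited matrix holds natural log values, which the authors made from Cell Ranger (6.0.0 in the submitters' notes) counts on mm10 as ln(1 + UMIs per 10000 UMIs of the cell). The labels and the methods name different 10x kits, so which end of transcripts was read is not known here. Whole UMIs were recovered from these logs for 99.97% of WT and 99.91% of Postn-DTR values (within 0.1 UMI). This is a normalized unit that replaces the counts assumed in the planned design, and no count test was run.

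Cells with 200 to 7500 genes and at most 25% mitochondrial UMIs were kept, as in the study's methods. They were clustered with Seurat 5.3.0 and sctransform 0.4.2 in R 4.3.3 (3000 variable features without the granule genes, 30 components, resolution 0.8; 32 clusters). A cluster was named where at least 3 markers of a list, and a share of at least 0.5 of it, were 2-fold above the other cells, that share led the next list by 0.15, and under 25% of its cells were called doublets. Scrublet (scanpy 1.11.5, score above 0.25) called 135 and 103 doublets, which were kept. Levels, shares and exact 95% intervals were computed with numpy 2.4.6, pandas 2.3.3 and scipy 1.17.1, and scripts were tested on simulated data. Calls needed 100 UMIs over the libraries and a 2-fold ratio. Genes were named as members, as the genes with the highest level in a related list, as genes past 2-fold, or as the 5 most alike in pattern. Ms4a3, Cxcr2, Ctsc and Mcpt8 were named after their values were seen. The granule genes and all lists were chosen with earlier results of these data known.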

Additional observations from a re-analysis of the deposited data

Results flagged for a closer look

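Camp and Ngp differed between Postn-DTR and WT in opposite directions in 2 cell classes. In monocyte-like cells the log2 ratios were 3.85 for Camp and 3.91 for Ngp, and in mature neutrophil-like cells they were -1.85 for Camp and -1.50 for Ngp. With 1 library a group the difference between the classes was not tested. The monocyte-like values rest on few cells, since 124 of 196 Camp UMIs and 80 of 202 Ngp UMIs outside the cycling cluster came from 1 cell each in Postn-DTR. When the granule genes entered the clustering, the mature value was 0.33 for Ngp and -0.57 for Camp, which was lower in 10 of 10 alternatives. These alternatives leave out the maturation bins. Along those bins Camp was at -0.087, -0.0072, 0.11, 1.67 and 3.04, with 17 and 16 WT cells in the last bins.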

How the results depend on the processing

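Directions and sizes below are log2 of Postn-DTR over WT for summed gene classes unless a percent is named. With the granule genes in the clustering, precursor-, immature- and mature-like cells were 42.3%, 44.3% and 13.4% of the WT lineage and 27.7%, 26.1% and 46.2% of the Postn-DTR lineage. In that clustering the primary sum was at -0.52 in precursors (-0.67 as reported) and 3.05 in monocyte-like cells (0.62), where the cycling cells no longer belonged to the class. The secondary sum was at 0.31 in precursors (0.15), -0.38 in immature cells (-0.46) and 0.19 in mature cells (-1.17). In mature cells Ngp was at 0.33 (-1.50), Lcn2 at 0.19 (-0.71) and Mmp8 at 0.11 (-0.54). Each was thus higher in Postn-DTR in that clustering and lower in the values reported above. Mmp8 and Mmp9 were at 0.13 in immature (0.25) and -0.11 in mature cells (-0.50), and the 10 genes in lymphocytes at 0.85 (1.16). On summed UMIs the primary sum was at -0.55 in precursors and 0.30 in monocyte-like cells, the secondary sum at 0.16 and -0.27 in precursors and immature cells, and lymphocytes at 0.67. Centred on the median of all genes, the primary sum was at -0.64 in precursors and 0.70 in monocyte-like cells, the secondary sum at 0.18, -0.59 and -1.30 by stage, and Mmp8 and Mmp9 at 0.12 and -0.62 in immature and mature cells. The secondary sum in precursors was at 0.16 without doublets, with totals that leave out mitochondrial, ribosomal and granule genes, and without the top cell. In immature cells it was at -0.42 without doublets, -0.42 with 500 or more genes a cell and -0.49 with those totals, and in mature cells at -1.14 without the top cell. The primary sum in monocyte-like cells was at 0.71 without the top cell and 0.68 at resolution 1.6. Lymphocytes were at 0.86 without doublets, 1.10 with those totals, 1.23 and 0.71 with 0.01 and 0.5 added, and 0.64 without the 1% with the most S100a8 and S100a9. Within bins of like maturity score the primary sum was at 0.42 and the secondary sum at -0.74 in precursors, and over immature and mature cells the secondary sum was at 0.37 and Mmp8 with Mmp9 at 0.023. Lymphocytes with a granule UMI were 4.80% and 6.99% at 2000 UMIs and 11.6% and 22.6% without thinning. With 20 or more UMIs, or no filter, 2 genes passed 2-fold in immature cells (Prtn3 and Elane lower) and 6 in mature cells (Elane, Mpo and Prtn3 higher, beside the 3 lower). Of all genes with 20 or more UMIs, 2.65% were higher and 2.77% lower in immature cells, and 8.81% and 3.45% in mature cells. Without a filter these shares were 2.22% and 2.03%, and 5.78% and 3.29%. The Elane, Mpo and Prtn3 calls in mature cells rest on 1 and 30, 2 and 20, and 4 and 42 UMIs in WT and Postn-DTR. The bins, Ly6c2 cells, subtraction of lymphocyte levels and doublet threshold were chosen after seeing the data. The cause of these shifts was not tested. The sign thus changed for the secondary sum in mature cells (both ways of regrouping), for Mmp8 with Mmp9 there and the primary and secondary sums in precursors (within bins), and for Ngp, Lcn2 and Mmp8 in mature cells. Under these settings 69 of 121 values for the main results and 220 of 307 for single genes kept their direction and their size within counting error. No paired analysis was possible because each group is 1 library and the labels carry no replicate numbers. Depth limits the primary genes in immature and mature cells, where at most 107 UMIs of a gene set each level.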
